A study of Mus musculus with 8 samples.

Results

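Transcripts of 10 small leucine-rich proteoglycans (SLRPs) were followed in bulk RNA sequencing of femoral shaft bone from mice lacking Girk3 and their wild-type counterparts. The genes were taken by name: Bgn, Dcn, Lum, Fmod, Omd, Ogn, Aspn, Prelp, Kera and Podn. The rule holds no measured value, but the members were chosen with earlier results of these data known. All 10 were found among the 49315 gene IDs of the count table, and all 10 passed the low-count filter, as members of the 17450 genes tested. The 8 libraries came from 4 wild-type (WT) and 4 Girk3 knockout (KO) male mice of 24 weeks, all labelled C57BL6, with each library taken as 1 mouse. Kcnj9 encodes Girk3, one of the subunits from which G protein-gated inward rectifier potassium channels are assembled. The labels write the genotype as Girk3-/- and do not say which part of the gene was removed, and the same bone preparation was used for both groups: shaft cut from its ends, marrow flushed out, and the whole remaining tissue homogenised. By its title the study concerned osteoblast maturation and the accrual of bone mass. The comparison made here asks whether transcripts of these matrix proteins differ in adult bone.

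SLRPs are secreted proteins with a core of leucine-rich repeats that bind collagen fibrils and set fibril diameter and spacing, and several of them also bind growth factors of the TGF-beta family. Biglycan (Bgn) and decorin (Dcn) carry chondroitin or dermatan sulfate chains and are the main proteoglycans of mineralised bone matrix. Lumican (Lum), fibromodulin (Fmod) and keratocan (Kera) can carry keratan sulfate, and fibromodulin and keratocan are abundant in tendon and cornea respectively. Osteomodulin (Omd), also called osteoadherin, is found mainly in mineralised tissue. Asporin (Aspn) binds collagen and calcium, osteoglycin (Ogn) is also called mimecan, PRELP (Prelp) links basement membranes to collagen, and podocan (Podn) is a more distant relative.

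Most of these genes lie in clusters. On GRCm38, the same build as mm10, Aspn, Omd and Ogn follow each other on the plus strand of chromosome 13, with gaps of 14.9 and 15.2 kb. Dcn, Lum and Kera follow each other on chromosome 10, with gaps of 47.0 and 34.2 kb. Prelp and Fmod are 116 kb apart on chromosome 1, on opposite strands, 38.4 and 38.3 Mb from Kcnj9. Bgn is on the X chromosome and Podn on chromosome 4. RefSeq promoter sequence (GRCm38.p6) was matched for 8 of the 10 genes, all but Dcn and Lum. The 250 bases upstream of the start are shown for Bgn and Fmod, whose levels were the steadiest and among the more variable of the abundant members, and for the neighbours Omd and Ogn, whose ratio was tested. Capitals mark matches, on either strand, to the GC box GGGCGG, to the TATA box spelled as TATAAA, to the E-box spelled as CATCTG, to the other E-box spelling, CAGCTG, and to the RUNX motif spelled as AACCACA.
Bgn, chrX:73483351-73483600, plus strand: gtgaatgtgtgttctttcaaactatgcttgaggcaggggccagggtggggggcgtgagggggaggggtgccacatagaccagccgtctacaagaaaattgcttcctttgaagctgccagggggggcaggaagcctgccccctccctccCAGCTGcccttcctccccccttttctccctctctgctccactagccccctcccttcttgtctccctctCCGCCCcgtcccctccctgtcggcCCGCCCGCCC
Fmod, chr1:134037004-134037253, plus strand: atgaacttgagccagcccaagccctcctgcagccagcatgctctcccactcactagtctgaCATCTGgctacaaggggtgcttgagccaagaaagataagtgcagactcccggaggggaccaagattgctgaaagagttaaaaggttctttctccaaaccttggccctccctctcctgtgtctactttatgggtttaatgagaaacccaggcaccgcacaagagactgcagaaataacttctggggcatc
Omd, chr13:49582212-49582461, plus strand: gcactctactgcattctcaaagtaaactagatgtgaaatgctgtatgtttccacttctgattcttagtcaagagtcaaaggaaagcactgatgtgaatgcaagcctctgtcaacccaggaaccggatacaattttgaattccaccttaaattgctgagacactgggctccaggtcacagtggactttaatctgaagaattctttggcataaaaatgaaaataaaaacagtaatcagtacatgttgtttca
Ogn, chr13:49607765-49608014, plus strand: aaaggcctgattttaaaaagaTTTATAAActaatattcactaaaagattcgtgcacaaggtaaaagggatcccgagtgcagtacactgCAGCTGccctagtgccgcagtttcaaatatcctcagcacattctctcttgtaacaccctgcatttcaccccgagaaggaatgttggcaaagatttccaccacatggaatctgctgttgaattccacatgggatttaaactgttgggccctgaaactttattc
The Bgn window held 3 GC boxes, at 34, 10 and 6 bases upstream of the start and the last 2 overlapping, and a CAGCTG at 102 bases, with 64.4% G and C. The Fmod window held a CATCTG at 189 bases. The Ogn window held overlapping TATAAA matches at 229 and 227 bases and a CAGCTG at 162 bases, and the Omd window held none of the 5 motifs. Of 32851 promoter windows of the same length, 32.7% held GGGCGG, 12.4% TATAAA, 14.4% CATCTG, 13% CAGCTG and 4.4% AACCACA. A match describes the letters only.

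Libraries held 30087749 to 36553713 counts. Reads on Kcnj9 itself were too few to check the genotype labels, with at most 23 in a WT library and at most 8 in a KO library. None of 8 osteoblast and 8 osteocyte markers was at 0 across a group, while 3 of 8 cartilage markers did not pass the filter. Osteoblast markers summed to between 5140 and 12954 CPM, counts scaled to TMM-adjusted library sizes. WT replicate 4 and KO replicate 4 lay at opposite ends of the first principal component (53.5 and -60.5, with 33.5% of variance) and had the lowest and highest summed CPM of 12 skeletal muscle markers, 58895 and 154905. Every pair of libraries differed by more than sampling noise.

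Per kilobase of exon, 5 members stood well above the others in WT bone. Lum was at 106 ± 10.7, Dcn at 90.7 ± 11.7, Fmod at 84.5 ± 17.9, Aspn at 72.1 ± 8.94 and Bgn at 63.6 ± 6.89 CPM per kilobase (SD, n = 4). Neighbours among these 5 overlapped in their ranges across the 4 libraries, so the ranges do not settle their order, which was not tested. Ogn followed at 33.4 ± 7.41 CPM per kilobase, below every Bgn value and above every Prelp value. Prelp (11.6 ± 4.02) and Omd (9.94 ± 1.82) overlapped each other, and so, below every Omd value, did Kera (2.87 ± 1.58) and Podn (1.71 ± 0.521), all in CPM per kilobase (SD, n = 4). In KO bone Dcn came first at 99.3 ± 24.1, ahead of Fmod at 91.1 ± 34.6 and Lum at 89.4 ± 17.1 CPM per kilobase (SD, n = 4), and the other 7 members kept their places. The place of Bgn depends on its length: 6099 bases in all annotated exons against 2666 in the longest transcript, which would put Bgn first at 146 CPM per kilobase in WT.

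**Figure D1:**
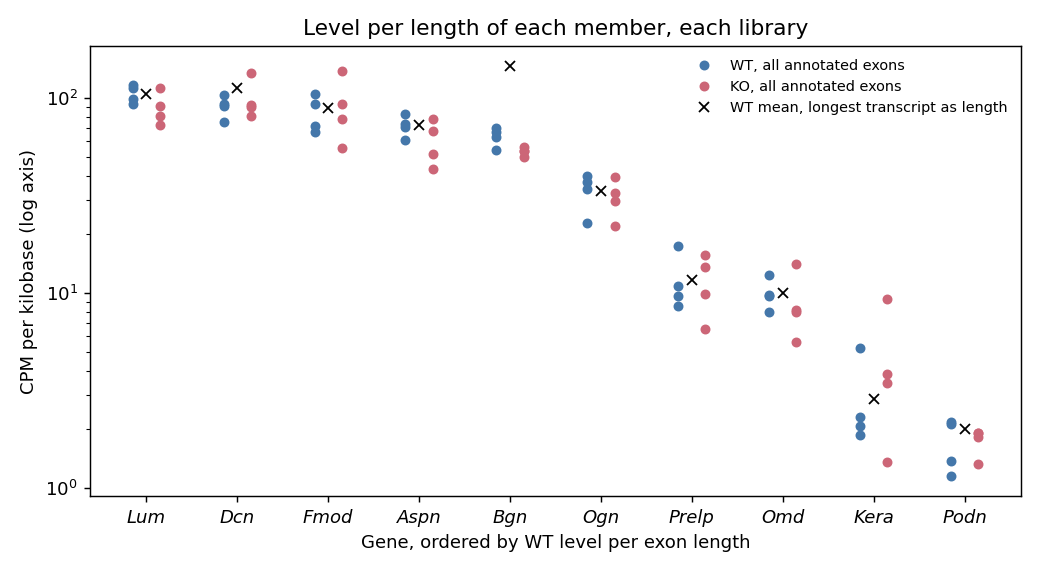
CPM per kilobase of annotated exon (log axis) for each of the 10 genes, with 1 point per library (4 WT, 4 KO) and a cross for the WT mean when the longest transcript is taken as the length. Lum, Dcn, Fmod, Aspn and Bgn overlap at the top, Ogn stands alone, and the cross moves far from the points only for Bgn, to 146.

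Levels within a gene are given below as CPM, on the same TMM-scaled library sizes as the values above. None of the 10 genes differed between KO and WT in edgeR (quasi-likelihood test, p-values adjusted by Benjamini-Hochberg over all 17450 genes), where 0.0115% of genes were called (2 genes, neither an SLRP). That background was 0.00573% for genes higher in KO and 0.00573% for genes lower in KO. None of the 10 had an unadjusted p under 0.05 in edgeR, against 18.2% of all genes tested. DESeq2 called 0 of the 10, with 1 member at an unadjusted p under 0.05, against 6.16% of all genes called and 20.2% with such a p. The limma-voom fit used sample quality weights, which give less weight to libraries far from the fit. With them 0 members were called and 2 had an unadjusted p under 0.05, against 4.04% and 22.8% of all genes. Without those weights both counts were 0, against 0.0229% and 18.1%. For none of the 10 did the groups lie fully apart, against 13.1% of all genes tested. The log2 fold changes (KO minus WT) were below 0 for 6 members and above 0 for 4, with a median of -0.071, beside -0.012 over all genes tested, of which 51.4% were below 0.

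**Figure D2:**
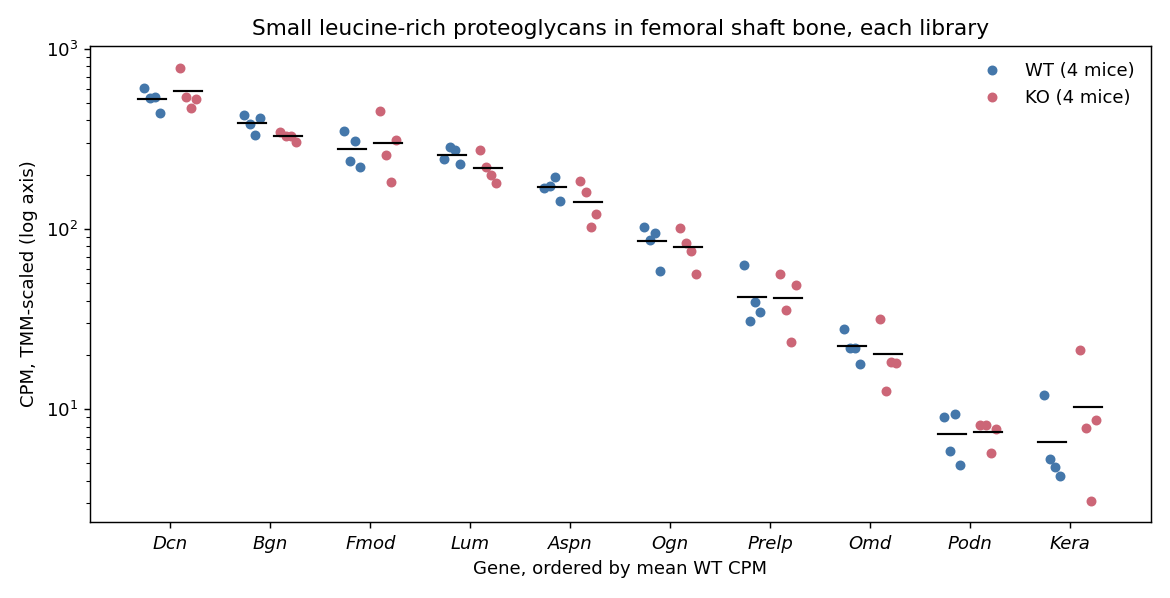
CPM (log axis) of each of the 10 genes in each of the 4 WT and 4 KO libraries, with a bar at the arithmetic mean of each group. The groups overlap for every gene, and KO replicate 1, the first of the 4 KO points, is the highest KO value for every gene but Podn, where it is at 8.16 against 8.18 CPM in KO replicate 2.

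Among the class I proteoglycans, biglycan had the tightest values. Bgn was at 427, 384, 331 and 410 CPM in WT replicates 1 to 4 and at 343, 328, 327 and 306 CPM in KO replicates 1 to 4. Of the 4 KO values, 3 lay below every WT value, and the groups overlapped through WT replicate 3 and KO replicate 1. The means were 388 ± 42.1 CPM in WT against 326 ± 15.5 CPM in KO (SD, n = 4 each), a log2 fold change of -0.25 (standard error 0.14, edgeR adjusted p = 0.366). Its 95% interval ran from 0.680-fold to 1.04-fold.

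Decorin, the most abundant member by CPM, was at 603, 534, 543 and 438 CPM in WT replicates 1 to 4 and at 786, 537, 471 and 524 CPM in KO replicates 1 to 4. KO replicate 1 was above all other libraries, while the remaining KO libraries lay within the WT range. Dcn had a log2 fold change of 0.13 (standard error 0.19, edgeR adjusted p = 0.776), which was -0.053 without KO replicate 1.

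Asporin was at 168, 172, 195 and 144 CPM in WT and at 184, 160, 102 and 121 CPM in KO, in replicate order. KO replicates 3 and 4 were below every WT library and KO replicate 1 was above all WT libraries but replicate 3. Its log2 fold change was -0.26 (standard error 0.19, edgeR adjusted p = 0.519), and 7 of its exon bases are shared with Cenpp on the other strand, a gene at 3.74 CPM.

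Of the class II members, lumican was at 244, 286, 275 and 229 CPM in WT and at 276, 222, 198 and 179 CPM in KO, in replicate order. KO replicates 2, 3 and 4 lay below every WT library, and KO replicate 1 lay among the highest WT values. Lum had a log2 fold change of -0.24 (standard error 0.16, edgeR adjusted p = 0.475), and without KO replicate 1 it was -0.37 (edgeR adjusted p = 0.311).

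Fibromodulin, which binds the same region of type I collagen as lumican, was at 348, 239, 309 and 222 CPM in WT and at 454, 258, 182 and 310 CPM in KO. The highest and the lowest of all 8 values were both KO libraries, replicates 1 and 3. Its log2 fold change was 0.11 (standard error 0.27, edgeR adjusted p = 0.873), and -0.16 without KO replicate 1.

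Keratocan showed the widest spread. It was at 11.9, 5.28, 4.76 and 4.25 CPM in WT and at 21.3, 7.88, 3.11 and 8.76 CPM in KO, from 99 to 663 counts per library. WT replicate 1 stood clear of the other WT libraries, and KO replicates 1 and 3 were the highest and lowest of the 8. The means were 6.55 ± 3.60 CPM in WT against 10.3 ± 7.76 CPM in KO (SD, n = 4 each). The log2 fold change of 0.65 (standard error 0.52, edgeR adjusted p = 0.559) had a 95% interval from 0.700-fold to 3.5-fold. It was 0.0025 without KO replicate 1 and 1.11 without WT replicate 1.

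PRELP was at 63.2, 30.9, 39.4 and 34.7 CPM in WT and at 56.5, 35.7, 23.7 and 48.9 CPM in KO. Replicate 1 was the highest library in each genotype, and the group means were nearly equal (42.0 ± 14.5 and 41.2 ± 14.5 CPM, SD, n = 4 each). Prelp had a log2 fold change of -0.031 (standard error 0.29, edgeR adjusted p = 0.971). It shares 350 exon bases with the antisense gene Gm15851, which was at 0.130 CPM.

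Osteomodulin was at 27.8, 21.8, 21.9 and 17.9 CPM in WT and at 31.6, 12.6, 18.3 and 18.0 CPM in KO. KO replicate 1 was above and KO replicate 2 below every WT library. Omd had a log2 fold change of -0.15 (standard error 0.25, edgeR adjusted p = 0.807), which was -0.46 without KO replicate 1 (edgeR adjusted p = 0.321) and 0.018 without KO replicate 2.

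Osteoglycin, the class III member, was at 102, 87.2, 94.7 and 58.6 CPM in WT and at 101, 83.8, 75.8 and 56.4 CPM in KO. Both replicates 4 were the lowest of their genotype. Ogn had a log2 fold change of -0.11 (standard error 0.21, edgeR adjusted p = 0.826), with a 95% interval from 0.672-fold to 1.27-fold. Podocan was at 9.04, 5.89, 9.35 and 4.92 CPM in WT replicates 1 to 4 and at 8.16, 8.18, 5.68 and 7.77 CPM in KO replicates 1 to 4. All KO values lay within the WT range, and Podn gave a log2 fold change of 0.031 (standard error 0.23, edgeR adjusted p = 0.963).

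**Figure D3:**
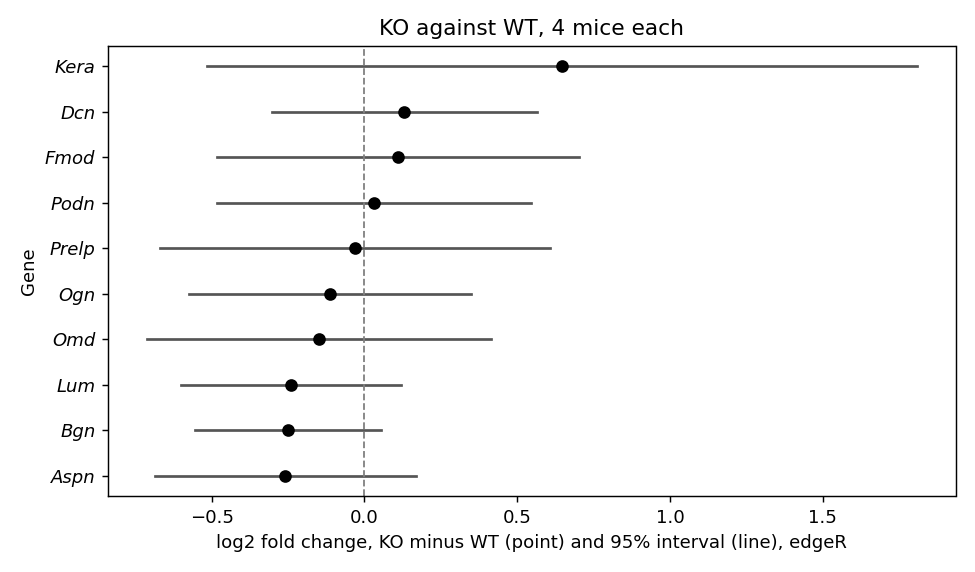
Log2 fold change of each gene (point, KO minus WT, edgeR) with its 95% interval (line), 4 mice per genotype. Every interval spans 0. The interval is narrowest for Bgn (-0.56 to 0.053) and widest for Kera (-0.51 to 1.81).

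The intervals limit what these libraries can show. For 9 of the 10 genes the upper bound of the KO to WT ratio was at most 1.63-fold and the lower bound at least 0.610-fold, while Kera allowed a rise of up to 3.5-fold. A test that does not pass does not show that the genotypes were alike. In bulk tissue, fewer cells of a type and less RNA per cell cannot be told apart.

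The members differed widely in how much they varied between mice of the same genotype. The pooled within-genotype SD of log2 CPM was 0.12 for Bgn, smaller than in all but 9.61% of the genes tested, and 0.22 for Lum and 0.27 for Dcn, near or below the median of 0.28 over all genes tested. It was 0.44 for Fmod, 0.51 for Prelp and 0.93 for Kera, with 97.7% of tested genes varying less than Kera. KO replicate 1 was above the 8-library mean for 9 of the 10 members, all but Bgn, and was the highest library for 4. KO replicate 3 was below the mean for all 10 and the lowest library for 4. The variable members did not all follow 1 order: Omd was lowest in KO replicate 2 (-0.70) and Podn in WT replicate 4 (-0.54), and in KO replicate 4 Kera and Prelp were above their means (0.32 and 0.30) while Aspn was below (-0.33), on the log2 scale. KO replicate 1 was above the 8-library mean of each gene by 1.59 for Kera, 0.70 for Fmod, 0.62 for Omd, 0.52 for Dcn and 0.51 for Prelp on the log2 scale, whereas Bgn was at -0.046 there. KO replicate 3 lay at -1.16 for Kera, -0.75 for Prelp, -0.62 for Fmod and -0.58 for Aspn, but at -0.16 for Omd. WT replicate 1 was above the mean for all 10 genes, by 0.048 for Lum to 0.76 for Kera. The share of all genes tested that lay above or below their means in these libraries was not counted.

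The 12 markers of tendon and periosteum fibroblasts were also mostly high in KO replicate 1 and low in KO replicate 3. They summed to 1535, 1456, 1515 and 1340 CPM in WT replicates 1 to 4 and to 1731, 1203, 1005 and 1188 CPM in KO replicates 1 to 4, with KO replicate 1 the highest and KO replicate 3 the lowest of the 8. Of the 12, 5 had log2 fold changes above 0 and 7 below, 0 passed in edgeR, 2 had an unadjusted p under 0.05, and none was at 0 across a group. By gene, 10 of the 12 were above their 8-library mean in KO replicate 1 and 9 of the 12 were below it in KO replicate 3, again without a count over all genes. Markers named here were chosen after their values were seen. Tnmd, the tendon membrane protein tenomodulin, was at 1.06 in KO replicate 1, 0.47 in WT replicate 1 and -0.67 in KO replicate 3, as log2 deviations from its mean. Others did not follow: Egr1, an immediate early transcription factor gene, was at -0.17, -0.95 and 0.31 in the same libraries, Tnc was near its mean in KO replicates 1 and 3 (-0.033 and -0.053), and Pi16 and Fbln1 were above theirs in KO replicate 3 (0.24 and 0.023). Adipocyte markers were also highest in KO replicate 1, at 844 CPM in sum against 260 to 421 in the other 7 libraries. Neutrophil markers were highest there too, at 7166 CPM, but were next highest in KO replicate 3, at 6060 CPM. The part of these cell types in the levels of Kera, Fmod, Prelp and Dcn was not tested.

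**Figure D4:**
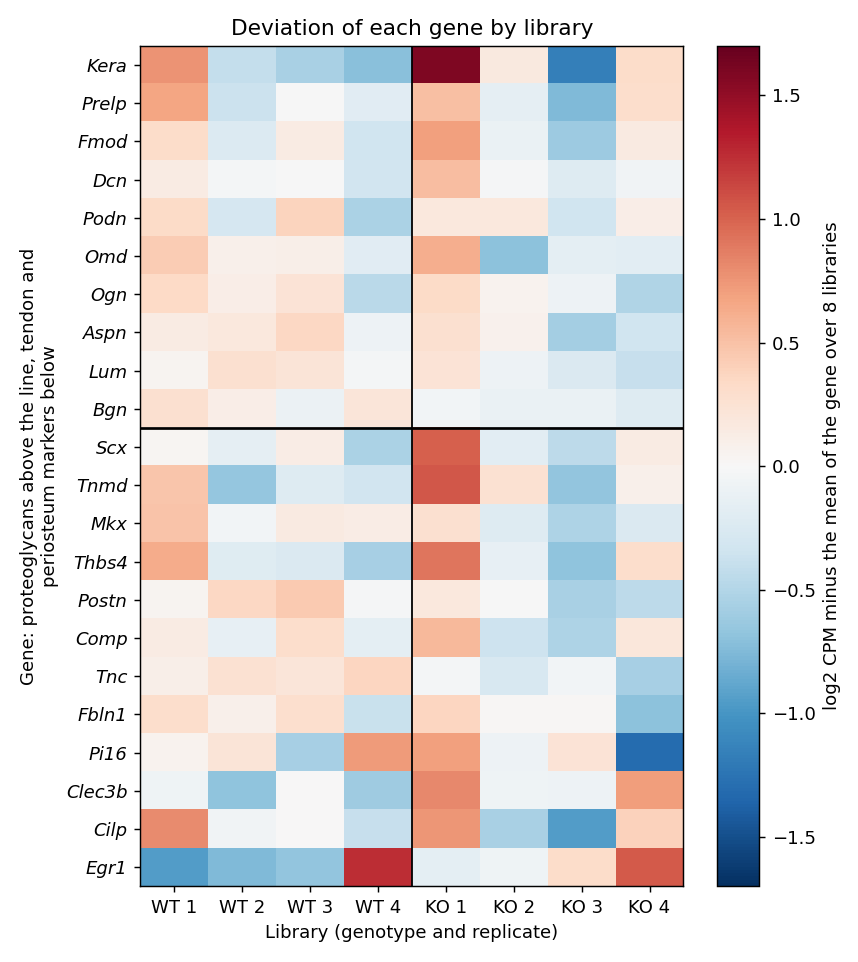
Log2 CPM minus the gene's mean over the 8 libraries, for the 10 proteoglycans (above the line) and the 12 tendon and periosteum markers (below), with WT libraries left and KO libraries right. KO replicate 1 is above the mean for 9 of the 10 proteoglycans and 10 of the 12 markers, and KO replicate 3 is below it for all 10 proteoglycans and 9 of the 12 markers, with Egr1 going the other way in both.

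Leaving out WT replicate 1 and KO replicate 1 together, a setting chosen after seeing the data, gave 0 called members and a median log2 fold change of -0.095, with Lum at -0.40 (edgeR adjusted p = 0.412, unadjusted p = 0.0427). Without KO replicate 1 alone, 9 of the 10 log2 fold changes were below 0, with a median of -0.24 and 0 called, and Lum and Omd had an unadjusted p under 0.05 (0.0335 and 0.0375 in edgeR). In that fit 53.0% of all genes were below 0 and 14.1% had an unadjusted p under 0.05. Other omissions of 1 library leaned less. Without WT replicate 1, KO replicate 2, KO replicate 3 or KO replicate 4, 5 members were below and 5 above 0 each time. The medians were 0.066, -0.0019, 0.025 and -0.040 in that order. Without WT replicate 2 or WT replicate 4, 7 members were below and 3 above 0, with medians of -0.13 and -0.18. Without WT replicate 3, 6 were below and 4 above 0, with a median of -0.060. Without WT replicate 4 and KO replicate 4, 8 of 10 were below 0, with a median of -0.17 and 0 called. Bgn, Lum and Aspn stayed below 0 each time 1 library was left out.

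**Figure D5:**
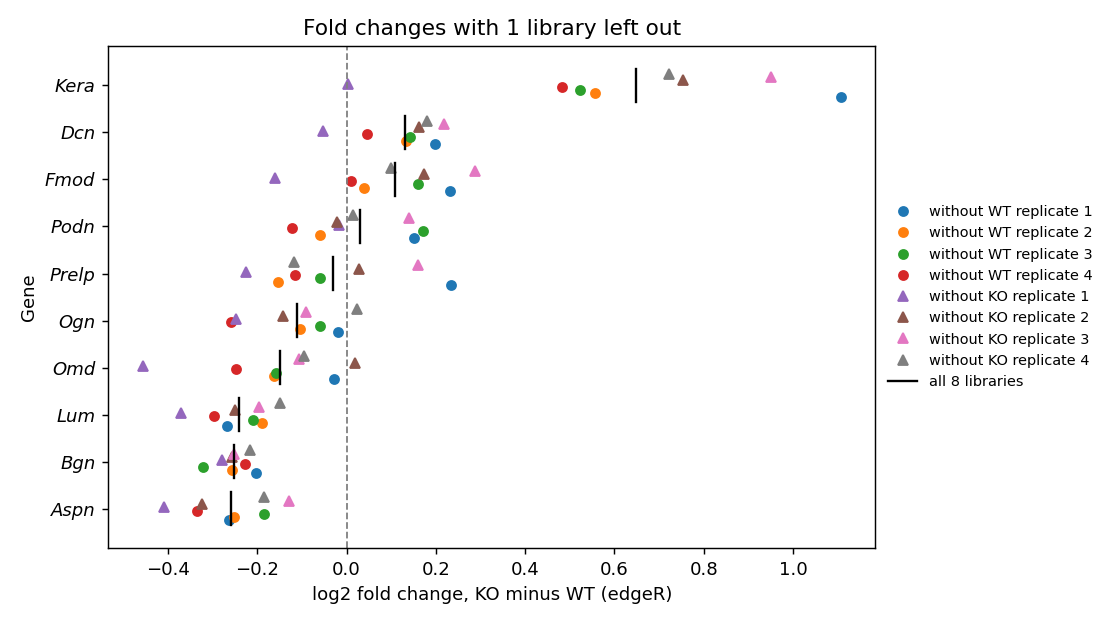
Log2 fold change of each gene (edgeR, KO minus WT) with all 8 libraries (bar) and with 1 library left out (circles for a WT, triangles for a KO library). Kera ranges from 0.0025 to 1.11, and Bgn, Lum and Aspn lie below 0 throughout.

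Pairs of members most alike across libraries were found from the root mean square (RMS) difference of their centred log2 CPM over the 8 libraries, as a description. The closest pair was Lum and Aspn (0.15), followed by Fmod and Prelp (0.18), neighbours on chromosome 1, and by Dcn and Fmod (0.20). Other neighbours were less close: Dcn and Lum (0.24), Omd and Ogn (0.33), Aspn and Omd (0.37), and Lum and Kera (0.81). Bgn and Kera were the farthest apart (0.84). These distances grow with a gene's own spread, which for Kera was an RMS of 0.83 about its mean. Among 9707 other genes with at least 10 CPM on average, the nearest profile to Aspn was that of Postn, the matrix protein periostin (0.10). The nearest to Ogn was Fbln1, encoding fibulin 1 (0.088), and the nearest to both Fmod and Prelp was Sod3, the extracellular superoxide dismutase (0.14 and 0.12). For Omd it was the Wnt-binding protein gene Sfrp2 (0.16), for Lum the noncoding RNA Rian (0.084), for Dcn Mxra7 (0.073) and for Bgn Nacc1 (0.046). The next nearest, in order, were Inpp4a and Rsbn1 for Bgn, P4ha2, a collagen prolyl hydroxylase, and Socs2 for Dcn, Ccdc80 and Glt8d1 for Lum, Meox1 and Fibin for Fmod, Snai2 and Chad for Omd, Col8a2 and Edil3 for Ogn, Rian and Tcaf1 for Aspn, and Ssc5d and Chodl for Prelp. Steady genes such as Bgn lie close to many profiles, so their small distances say little.

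Ratios within a library do not depend on library scaling. Of these, 3 were tested with an exact permutation test, two-sided, over the 70 arrangements of the libraries. That test cannot give a p below 0.0286. After Benjamini-Hochberg adjustment over the 3 ratios, a single ratio at that lowest p could not pass the threshold for adjusted p-values. The adjusted p-values below therefore cannot decide whether a ratio by itself differed between genotypes. The Bgn to Dcn count ratio was 0.708, 0.719, 0.609 and 0.936 in WT replicates 1 to 4 and 0.437, 0.610, 0.695 and 0.583 in KO replicates 1 to 4. Of the 4 KO ratios, 2 lay below every WT ratio and the other 2 within the WT range. The mean log2 ratio was -0.45 ± 0.26 in WT against -0.80 ± 0.28 in KO (SD, n = 4 per genotype, exact permutation p = 0.0857, 0.257 adjusted over the 3 ratios). The log2 ratio of Fmod to Lum was 0.093 ± 0.33 in WT against 0.40 ± 0.43 in KO (SD, n = 4 per genotype, exact permutation p = 0.314, adjusted 0.471). That of Omd to Ogn was -1.92 ± 0.17 and -2.02 ± 0.51 (SD, n = 4 each, exact permutation p = 0.83, adjusted 0.83), with KO replicate 2 the lowest of the 8 at -2.73.

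The 10 genes together summed to 2003, 1767, 1822 and 1564 CPM in WT and to 2262, 1653, 1407 and 1579 CPM in KO, in replicate order, again with KO replicates 1 and 3 as the extremes. Dcn made up 30.1, 30.2, 29.8 and 28.0% of this sum in WT replicates 1 to 4 and 34.8, 32.5, 33.5 and 33.2% in KO replicates 1 to 4. Every KO share of Dcn was above every WT share, the 1 member of 10 for which this held. It was singled out after its values were seen and is given without a test. A share depends on the other members, and the CPM of Dcn itself overlapped between genotypes. By CPM, a different measure, 7.33% of all genes tested had groups apart and higher in KO.

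Other members of the family and the genes that make, cut or bind SLRPs are described from lists of genes known to act with them. Those lists too were chosen with earlier results of these data known. Of 8 further leucine-rich relatives 6 passed the filter, 2 with log2 fold changes above 0 and 4 below, with a median of -0.11 and 0 called. Epyc and Optc, cluster neighbours of Dcn and Fmod known from cartilage and eye, did not pass the filter and were at most 0.256 CPM. Those with the smallest p were Nyx (-0.39) and Podnl1 (-0.21), edgeR adjusted p = 0.550 and 0.620. Of the 14 collagens that SLRPs bind or that build the same fibrils, 13 had log2 fold changes below 0, with a median of -0.30, 0 called in edgeR and 4 with an unadjusted p under 0.05, where 51.4% of all genes were below 0 and 18.2% had such a p. The median was -0.13 with the trend of counts with exon length and GC removed, and -0.30 with the muscle score as covariate. Medians of the marker lists differed beside it. They were -0.34 for 8 osteocyte markers (7 below 0) and 0.37 for 12 skeletal muscle markers (10 above 0). Cartilage markers were at -0.61, B cell at -0.56, erythroid at -0.31 and osteoblast at -0.20. Adipocyte (0.63) and neutrophil (0.53) markers were all above 0. Tendon and periosteum, endothelial and marrow reticular markers were at -0.056, -0.096 and 0.016. The part of these cell types in the collagen values was not tested. Col6a1, a chain of the beaded-filament collagen VI to which biglycan and decorin bind, was at 131 ± 7.36 CPM in WT against 95.7 ± 10.1 CPM in KO (SD, n = 4 each), with groups apart (edgeR adjusted p = 0.102). Col6a2 was also lower in every KO library, at 114 ± 5.49 and 92.1 ± 8.44 CPM (SD, n = 4 each, edgeR adjusted p = 0.186), and Col6a3 overlapped (log2 fold change -0.44, edgeR adjusted p = 0.160). Genes with groups apart and lower in KO made up 5.78% of all genes tested. Calls for the collagen VI chains depended on the setting. DESeq2, which called 6.16% of all genes, called Col6a1, and limma-voom with sample quality weights, which called 4.04%, called all 3 chains. On simulated data the share of false calls by DESeq2 was well above its threshold. Col6a1 and Col6a3 were called with the muscle score as covariate, which called 7.62% of all genes, and without both replicates 4, which called 2.62%. The other 16 alternatives called none of the 3, limma-voom without the weights among them. With the length and GC trend removed the log2 fold changes were -0.39 for Col6a1 (edgeR adjusted p = 0.198), -0.13 for Col6a2 and -0.22 for Col6a3.

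Of 16 enzymes that build chondroitin and dermatan sulfate chains, 13 had log2 fold changes below 0, with a median of -0.15, 0 called in edgeR and 3 with an unadjusted p under 0.05. Of 16, 3 is about the share of all genes with such a p, 18.2%, and the median was -0.051 with the muscle score, -0.082 without both replicates 4 and -0.093 without KO replicate 4. Chst3, which adds sulfate to carbon 6 of the galactosamine units of chondroitin, was at 11.2, 9.92, 8.17 and 13.4 CPM in WT replicates 1 to 4 and at 5.20, 6.06, 5.05 and 5.38 CPM in KO replicates 1 to 4. All KO values lay below all WT values. Its log2 fold change of -0.98 (standard error 0.17) had an edgeR adjusted p of 0.0714. DESeq2, with its excess of false calls on simulated data, called Chst3 (adjusted p = 9.29e-05). It was also called by limma-voom with sample quality weights (0.0247), with the muscle score (0.0278), without both replicates 4 (0.0426) and without a low-count filter (0.0381). It was not called in the other 15 alternatives, where the log2 fold change ran from -1.09 to -0.85. Chpf2, a chondroitin polymerising factor, was at 27.6 ± 1.12 CPM in WT against 22.4 ± 1.75 CPM in KO (SD, n = 4 each), also apart (edgeR adjusted p = 0.163).

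The 7 enzymes of the sugar linker that joins the chains to the core protein had a median of -0.033, with 3 above and 4 below 0 and 0 called, and the sign of that median turned to 0.24 with the muscle score and 0.12 without KO replicate 4. B3gat3, which adds the glucuronic acid of the linker, was higher in every KO library, at 53.6 ± 0.951 CPM in WT against 61.9 ± 3.72 CPM in KO (SD, n = 4 each, edgeR adjusted p = 0.277), where 7.33% of all genes tested had groups apart in that direction. Xylt1, a xylosyltransferase that starts the chain, had a log2 fold change of -0.29 (edgeR adjusted p = 0.388). Of 10 keratan sulfate and tyrosine sulfation enzymes 9 were tested, with 0 called and a median of -0.011 that turned to 0.23 with the muscle score and 0.081 without KO replicate 4. B3gnt2 (-0.51) and Tpst1 (-0.14) had the smallest p (edgeR adjusted p = 0.337 and 0.601). Chst4, the 1 untested enzyme of that list, had no count in any WT library.

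Of 11 proteases and enhancers that cleave SLRPs or their partners 10 were tested (all but Tll2), 7 with log2 fold changes below 0, with a median of -0.12 (0.012 with the muscle score) and 0 called. Mmp2, gelatinase A, was at 232 ± 13.8 CPM in WT against 197 ± 20.2 CPM in KO (SD, n = 4 each), with every KO library below every WT library (edgeR adjusted p = 0.365). Bmp1, which removes the propeptide of biglycan and of fibrillar procollagens, was at 147 ± 18.4 and 125 ± 18.8 CPM (SD, n = 4 each, edgeR adjusted p = 0.435), and its groups overlapped. Of 19 growth factors and receptors that SLRPs bind, 13 were below and 6 above 0, with 0 called and a median of -0.047, which was 0.041 without WT replicate 1 and -0.15 with the muscle score. Met (0.24) and Itga2 (-0.63) had the smallest p (edgeR adjusted p = 0.408 and 0.425). Tgfb1, the growth factor best known as a ligand of decorin and biglycan, ranged from 49.0 to 105 CPM in WT and from 42.5 to 88.0 CPM in KO. It was named after its values were seen, and its log2 fold change was 0.035. It was called in 1 of the 20 alternatives, with the muscle score as covariate (log2 fold change 0.57, edgeR adjusted p = 0.0238), a setting that called 7.62% of all genes and 1 of these 19.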

How the data were processed

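The deposited table held unnormalised read counts for each Ensembl gene ID in the 8 bone libraries. The submitters' processing notes name bcl2fastq 2.17, STAR 2.5.2b and featureCounts of Subread 1.5.2, with mm10. Sources used here do not give the annotation release, the strand setting or how multimapping reads were treated. Groups and replicate numbers came from sample titles. Of 49315 IDs, 48970 matched GENCODE M21 (GRCm38), the source of symbols, coordinates and exon lengths.

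The genotypes were compared in R 4.3.3 by edgeR 4.0.16 (robust quasi-likelihood test, TMM, filterByExpr, group as the only term, Benjamini-Hochberg threshold 0.05). Log2 CPM used a prior count of 2. Libraries, taken as 1 mouse each, were compared by exact permutation for single values. Alternatives included DESeq2 1.42.0, the weighted form of limma-voom (limma 3.58.1, with sample quality weights) and, chosen after seeing the data, the form without weights, other scalings and filters, a replicate block, a muscle score, lowess removal of the length and GC trend, and omitted libraries. On simulated data, the share of changes that limma-voom had to recover was lowered after its result was seen, and the share of false calls by DESeq2 was well above its threshold. The members and lists were chosen with earlier results of these data known. Named genes are all members, the 3 nearest profiles of each member of at least 10 CPM, and, per partner list, called genes or else the 2 of smallest p, plus those with groups apart. Exceptions are marked. Kera and Podn had the lowest levels, at 99 to 663 and 181 to 308 counts per library. Their within-genotype SD of log2 CPM was 0.93 and 0.37, and the part of depth in that spread was not tested.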

Additional observations from a re-analysis of the deposited data

Results flagged for a closer look

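In 7 of 94 groups of 4 libraries looked at, 1 library stood apart from the other 3 by more than Dixon's 95% critical value for the gap as a share of the group's range, and chance flags about 1 in 20 such groups. Among the members, Kera was at 11.9 CPM in WT replicate 1, against 5.28 CPM in the next WT library, and Podn was at 5.68 CPM in KO replicate 3, against 7.77 CPM in the next. Among genes acting on the proteoglycans, B3gat3 was high in KO replicate 1 (67.4 CPM), and Bmp1 (120.0 CPM) and Nyx (0.506 CPM) were low in WT replicate 3. The summed growth factor and receptor genes were high in KO replicate 4 (969 CPM) and the summed B cell markers were high in KO replicate 1 (142 CPM).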

How the results depend on the processing

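No member was called under any of 20 alternatives. With the length and GC trend removed, Lum (-0.39) and Aspn (-0.38) had an unadjusted p under 0.05 (0.0248 and 0.0423 in edgeR). In that fit 14.5% of all genes had such a p. The members' median log2 fold change, -0.071, ran from -0.24 (without KO replicate 1) to 0.066 (without WT replicate 1) with 1 library left out and turned sign without KO replicate 3 too (0.025). It was -0.22 to -0.070 otherwise. The count of called genes over the whole table, 2, became 986 with DESeq2, 705 with limma-voom and sample quality weights, 4 with limma-voom without those weights (chosen after seeing the data), 71 without a low-count filter, 1329 with the muscle score, 458 without both replicates 4 and 1 without both replicates 1, and was 2 to 4 with 1 library left out (4 without KO replicate 4). With the replicate block it was 1. The labels do not say whether replicate numbers pair the mice. Same-numbered libraries deviated from their group means with correlations of -0.19, -0.17, -0.25 and -0.57. These gave no sign of pairing but cannot exclude it, since other differences between libraries enter them too. With the block, 0 members were called.

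Signs of small fold changes turned. With limma-voom and sample quality weights Dcn was -0.040, Fmod -0.19, Kera -0.048 and Podn -0.062. All 10 members were below 0 in that fit, as were 51.3% of all genes, whereas without the weights no member turned. Library totals without TMM, which moved the median of all genes from -0.012 to -0.11, gave Podn -0.046. With the muscle score Fmod was -0.021 and Podn -0.24. Without both replicates 4 Fmod was -0.0017 and Podn -0.14, and without both replicates 1 Fmod was -0.037 and Prelp 0.041. With 1 library left out the ranges were -0.053 to 0.22 for Dcn, -0.16 to 0.29 for Fmod, -0.46 to 0.018 for Omd, -0.26 to 0.024 for Ogn, -0.23 to 0.23 for Prelp and -0.12 to 0.17 for Podn, and the Omd to Ogn log2 ratio ran from -0.23 to 0.14. With the longest transcript as length, 6 of 10 members kept their place in the order of levels. The causes were not tested.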
